A study of Homo sapiens with 6 samples.

Results

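Chemokines and interleukins are secreted proteins through which cells call and instruct leukocytes. Of 18417 genes measured on 6 microarrays, 76 were taken as such ligands by a naming rule, and their transcripts are described here. Related genes outside the rule, such as PF4, PPBP, IL36G, IL36RN and EBI3, were read apart from them. A gene was included where a probe set of the array carried exactly 1 gene symbol of the chemokine series (CCL, CXCL, CX3CL1, XCL1, XCL2) or of the numbered interleukin series, or was annotated to IL1RN, LIF or CSF2. The 76 are 20 CC chemokines, 14 CXC chemokines, CX3CL1, 2 XC chemokines, 37 numbered interleukins, the antagonist IL1RN and LIF. CSF2 was not analysed here, and 8 further probe sets that carry several symbols were kept apart from these genes.

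The arrays came from H358, an established human non-small cell lung cancer line. The cells stably expressed TwistER (3 arrays) or green fluorescent protein (GFP, 3 arrays), and both lines were cultured with 100 nM 4-hydroxytamoxifen (4OHT) for 12 days before RNA was taken. Fusions of the TwistER kind join the transcription factor Twist to a part of the estrogen receptor that 4OHT switches on, and the titles call the TwistER samples after, and the GFP samples before, epithelial-mesenchymal transition (EMT). The drug is thus common to both lines, no TwistER culture without 4OHT was among the arrays, and the labels do not say whether either line is a clone. All values are log2 expression of a probe set, all differences are TwistER minus GFP, and SDs have n = 3 arrays.

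Chemokines bind receptors coupled to G proteins on leukocytes and steer their migration. CXCL9, CXCL10 and CXCL11 are interferon-inducible ligands of CXCR3, which activated T cells carry, whereas CXC chemokines with the ELR motif before their first cysteine, such as CXCL8, attract neutrophils through CXCR1 and CXCR2. Interleukins fall into families by fold and receptor: the IL1 family, to which IL18 belongs, the ligands of the shared receptor gp130 (IL6, IL11, LIF), the ligands of the common gamma chain (IL2, IL4, IL7, IL15, IL21), and the IL10, IL12 and IL17 families. Airway epithelium is a known source of several of them, while many others are made mainly by lymphoid and myeloid cells.

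In the TwistER cells 4 ligand transcripts were higher than in the GFP cells and 1 was lower. CCL5 rose 2.55-fold, CXCL10 2.47-fold, CXCL11 1.75-fold and IL7 1.75-fold, and IL18 fell 5.83-fold. The test was limma, 2-sided, with Benjamini-Hochberg adjustment over all 18417 genes and a threshold of 0.05. The 4 rises are 5.26% of the ligand genes, beside 4.72% of all genes that rose, and the 1 fall is 1.32%, beside 4.11% of all genes that fell. The other 71 did not pass, and their differences lay between -0.48 and 0.41 on the log2 scale. The median difference was -0.03 over the 76 ligands and 0.01 over all genes. The fall of IL18 and the rises of CCL5 and CXCL10 passed with any single array left out. The rise of CXCL11 passed only with all 6 arrays or without GFP replicate 1, and that of IL7 was lost without TwistER replicate 2 or 3 or without GFP replicate 2 or 3.

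**Figure D1:**
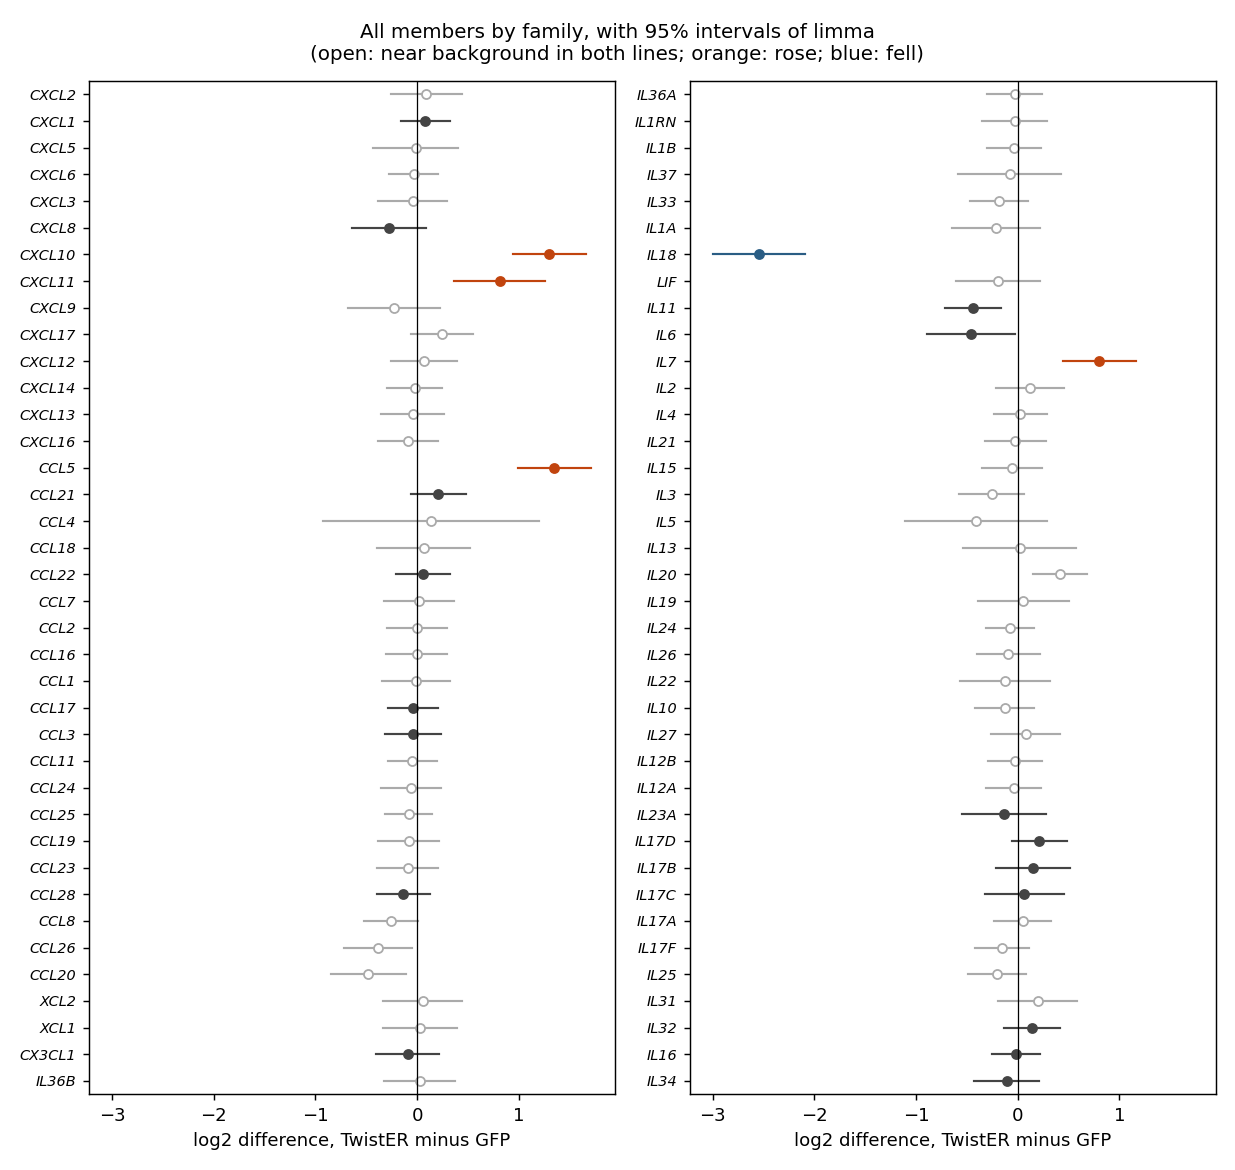
Log2 difference, TwistER minus GFP, of each of the 76 ligand genes (points) with limma's 95% interval (bars), ordered by family from top left to bottom right. Open grey points are genes near background in both lines and filled dark points are other genes that did not pass. CXCL10, CXCL11, CCL5 and IL7 (orange) lie to the right of 0, IL18 (blue) far to the left at -2.54, and the other 71 between -0.48 and 0.41.

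One array has to be named before the values. GFP replicate 1 was unlike its group, with correlations over genes of 0.9817 and 0.9825 to the other GFP arrays, which correlated with each other at 0.9958. Over the ligand genes it read above the mean of the other GFP arrays by a median of 0.11, beside -0.01 over all genes, and it was the highest GFP array in 42 of the 76 (55.3%), beside 40.0% of all genes. Without it 5 ligands rose and 2 fell, where 6.97% of all genes rose and 8.09% fell. The additions were IL20 (0.43, adjusted p = 0.0449) and LIF (-0.41, adjusted p = 0.0309), and the 5 named above all passed there too. Among ligands that did not pass, CCL4 moved to 0.71 there, against 0.13 with all arrays, and IL5 to 0.01, against -0.41. With any other single array left out, 2 to 3 ligands rose and 1 fell. Over all genes the share that rose was then 2.83%, 2.57% and 2.98% without TwistER replicates 1, 2 and 3, and 3.37% and 3.51% without GFP replicates 2 and 3. The share that fell was 2.12%, 1.94% and 2.1% without TwistER replicates 1, 2 and 3, and 2.4% and 3% without GFP replicates 2 and 3. At stricter and looser thresholds, 2.56% of all genes rose and 1.82% fell at an adjusted p under 0.01, and 6.5% rose and 6.47% fell under 0.1. With the replicate number as a block, 4 ligands rose and 1 fell, beside 4.56% and 4.08% of all genes. Beyond the words biological replicate the titles say nothing of how the samples arose, so a p-value here reflects only how far these arrays scatter.

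Most ligand transcripts lay near the background of the array. No detection call was used here, so 341 olfactory receptor genes stood in for genes that a lung cancer line does not transcribe, and the 95th percentile of their group means, 4.83 in TwistER and 4.88 in GFP, served as the limit. Of the 76 ligands, 54 (71.1%) were below it in both lines, beside 35.2% of all genes, 20 were above it in both, and CCL22 and IL7 were above it in TwistER and below it in GFP. The 20 were CXCL1, CXCL8, CXCL10 and CXCL11, CCL3, CCL5, CCL17, CCL21 and CCL28, CX3CL1, IL6, IL11, IL16, IL17B, IL17C, IL17D, IL18, IL23A, IL32 and IL34. With the 99th percentile, at 6.29 in TwistER and 6.17 in GFP, CCL5 and CXCL10 alone were above in both lines and IL18 was above in GFP. Background light compresses differences of dim probe sets, and probe sets differ in brightness for the same amount of RNA, so a low value shows only that no level could be told from background here. In bulk RNA, fewer cells that make a transcript and less transcript per cell cannot be told apart.

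**Figure D2:**
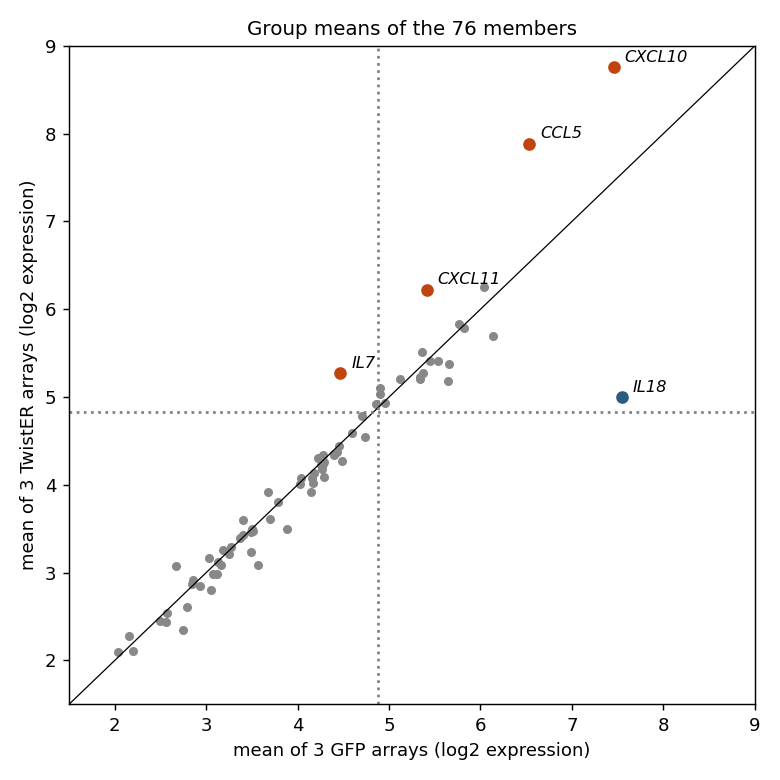
Mean log2 expression of the 76 ligand genes in the 3 TwistER arrays (vertical) against the mean of the 3 GFP arrays (horizontal), with the diagonal of equal values. Dotted lines are the background limits of 4.83 for TwistER and 4.88 for GFP. CXCL10, CCL5, CXCL11 and IL7 (orange) stand above the diagonal and IL18 (blue) below it, and 54 genes lie in the lower left field.

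The CXCR3 ligands lie beside each other on chromosome 4, and 2 of the 3 rose. Their promoters are shown because these are neighbouring genes of like function, of which CXCL10 and CXCL11 passed and CXCL9 was near background. Each sequence is the 250 bases before the RefSeq start of the gene on the minus strand of GRCh38.p14, for CXCL10 chr4:76023498-76023747, for CXCL11 chr4:76036071-76036320 and for CXCL9 chr4:76007510-76007759. Capitals mark matches, on either strand, to the NF-kB motif (GGG, any 5 bases, CC) and to the core of the interferon-stimulated response element, ISRE (GAAA, any 2 bases, GAAA).
CXCL10: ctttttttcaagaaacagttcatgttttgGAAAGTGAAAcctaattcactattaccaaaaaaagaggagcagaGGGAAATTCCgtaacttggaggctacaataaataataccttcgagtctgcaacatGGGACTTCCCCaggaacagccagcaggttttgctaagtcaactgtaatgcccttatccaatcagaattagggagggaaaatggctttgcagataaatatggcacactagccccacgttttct
CXCL11: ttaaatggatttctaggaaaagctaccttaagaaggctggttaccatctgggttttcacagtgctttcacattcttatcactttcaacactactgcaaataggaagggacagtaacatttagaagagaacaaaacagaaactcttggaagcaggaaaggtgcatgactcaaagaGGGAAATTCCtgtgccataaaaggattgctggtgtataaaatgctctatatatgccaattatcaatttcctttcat
CXCL9: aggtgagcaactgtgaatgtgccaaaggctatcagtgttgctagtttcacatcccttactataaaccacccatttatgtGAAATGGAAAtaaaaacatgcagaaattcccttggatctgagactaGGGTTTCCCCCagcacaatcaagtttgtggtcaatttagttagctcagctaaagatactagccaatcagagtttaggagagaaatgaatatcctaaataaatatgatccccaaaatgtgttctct

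The CXCL10 window holds an ISRE core that begins 221 bases before the start, and NF-kB matches that begin 177, 122 and 121 bases before it, the last pair overlapping. The CXCL9 window has an ISRE core at 171, overlapping NF-kB matches at 125 and 124 and a TATA box (TATAAA) at 191. The CXCL11 window has an NF-kB match at 76, an AP-1 match (TGANTCA) at 87 and a TATA box at 42, and no ISRE core in these letters. E-box letters (CANNTG), which bHLH factors such as Twist can bind, occur in all 3 windows. Among 27305 RefSeq windows of this length, 62.2% hold an E-box, 53.7% the NF-kB letters, 3.07% the ISRE core, 6.60% the AP-1 letters and 11.1% the TATA box. Windows of 54 ligand genes were found in the table, and among them the shares were 63.0%, 51.9%, 9.26% (CXCL9, CXCL10, IL4, IL17B and IL24), 20.4% and 35.2%. These are matches of letters and do not show binding.

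CXCL10 read 8.65, 8.78 and 8.85 in the TwistER arrays, against 7.76, 7.17 and 7.44 in the GFP arrays. Every TwistER array was above every GFP array, and both lines were far above the background limit. The means were 8.76 ± 0.10 in TwistER and 7.46 ± 0.29 in GFP (SD), a difference of 1.30 ± 0.16 (SE; 95% interval 0.94 to 1.66; limma adjusted p = 0.00134). Leaving out single arrays gave differences of 1.16 to 1.46.

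CXCL11 read 6.36, 6.26 and 6.05 in the TwistER arrays, against 5.88, 5.20 and 5.16 in the GFP arrays. The groups did not overlap, but GFP replicate 1 came close to the lowest TwistER array. The difference was 0.81 ± 0.20 (SE; limma adjusted p = 0.0385). It was 1.04 when GFP replicate 1 was left out (limma adjusted p = 0.00132). A second quantile normalization, median centring and cyclic loess each ended the call, with CXCL11 differences of 0.78 to 0.80 and limma adjusted p of 0.0658 to 0.0728.

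CXCL9 read 4.10, 4.20 and 3.45 in the TwistER arrays, against 4.00, 4.28 and 4.15 in the GFP arrays. The groups overlapped, all values were below the background limit, and the difference was -0.23 (95% interval -0.68 to 0.22; limma adjusted p = 0.592). Of the genes between and beside these chemokines, ART3 (-0.06) and NUP54 (-0.07) did not pass either.

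Among the 20 CC chemokines CCL5 was the 1 that passed. CCL5, also called RANTES, attracts T cells, monocytes and eosinophils. It read 7.74, 7.97 and 7.94 in the TwistER arrays, against 6.29, 6.47 and 6.84 in the GFP arrays. The lowest TwistER array was well above the highest GFP array. The difference was 1.35 ± 0.16 (SE; 95% interval 0.99 to 1.71; limma adjusted p = 0.00110), and 1.23 to 1.51 when single arrays were left out. CCL16, the nearest other ligand gene on chromosome 17, read 3.12 ± 0.20 in TwistER and 3.13 ± 0.09 in GFP (SD), and of the 12 ligand genes on that chromosome none but CCL5 passed.

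Of the CC chemokines that did not pass, 14 were near background in both lines. CCL20, which attracts CCR6-bearing cells to epithelia, read 2.89, 3.29 and 3.06 in the TwistER arrays, against 3.77, 3.64 and 3.27 in the GFP arrays (difference -0.48, limma adjusted p = 0.120). Its groups overlapped slightly. The monocyte attractant CCL2 was near background, at 3.49 ± 0.15 in TwistER and 3.50 ± 0.15 in GFP (SD). CCL17, a ligand of CCR4, was above the limit in both lines at 5.79 ± 0.05 in TwistER and 5.82 ± 0.11 in GFP (SD), with a 95% interval of the difference of -0.28 to 0.21. CCL8 lay below GFP in every TwistER array by a small amount (-0.25, limma adjusted p = 0.255). CCL4 had the widest spread, from 2.04 to 4.18 within the GFP arrays alone. Probe sets that it shares with its copies CCL4L1 and CCL4L2 scattered less, from 3.32 to 3.92 in the GFP arrays.

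**Figure D3:**
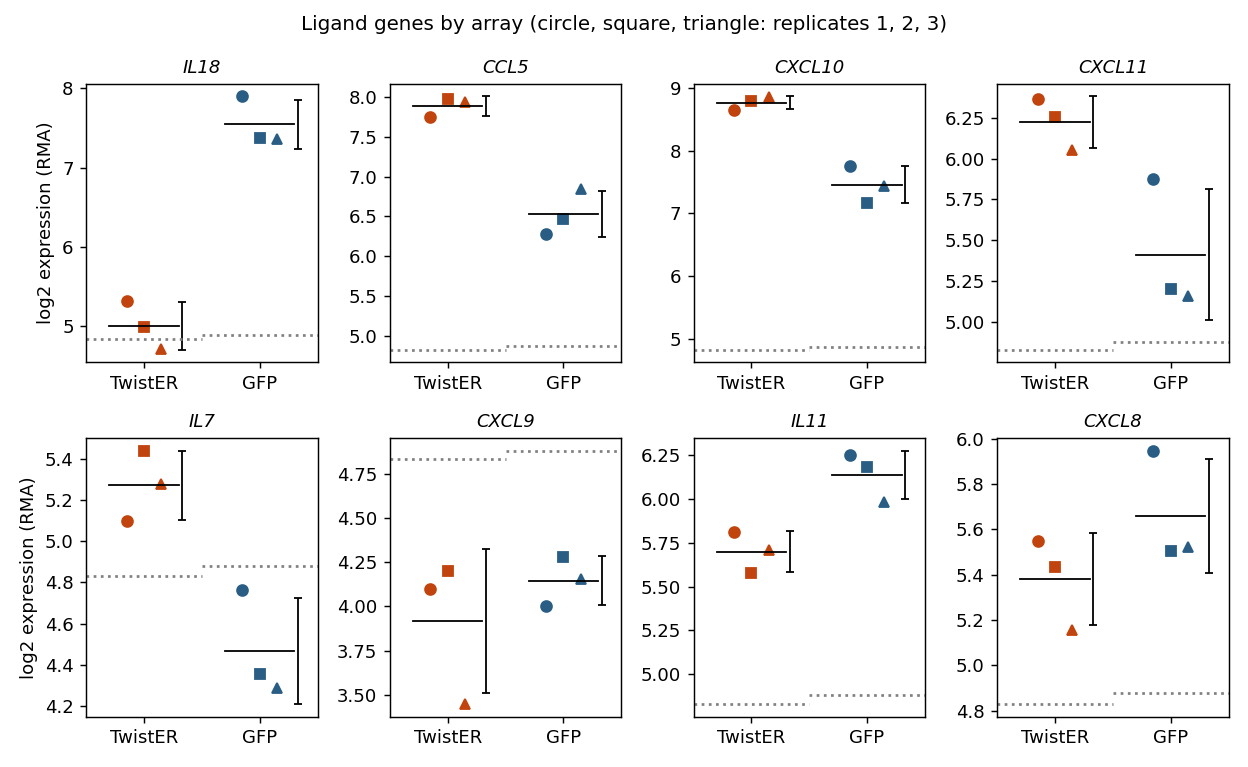
Log2 expression of 8 ligand genes in each array, TwistER left (orange) and GFP right (blue), with circle, square and triangle for replicates 1, 2 and 3, the mean as a line, the SD as a bar and the background limit dotted. Vertical scales differ between genes. IL18, CCL5, CXCL10, CXCL11, IL7 and IL11 have no overlap between the lines, whereas CXCL9 and CXCL8 overlap and CXCL9 is below the limit throughout.

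The ELR chemokines showed no change that passed. Of the 6 (CXCL1, CXCL2, CXCL3, CXCL5, CXCL6 and CXCL8), 0 rose and 0 fell, 0 had an unadjusted p under 0.05, and their differences were between -0.28 and 0.09. CXCL8, the main neutrophil attractant, read 5.55, 5.43 and 5.16 in the TwistER arrays, against 5.95, 5.51 and 5.52 in the GFP arrays. The groups overlapped, and its difference of -0.28 had a 95% interval of -0.64 to 0.09 (limma adjusted p = 0.387) and was -0.13 without GFP replicate 1. CXCL1 was 5.21 ± 0.06 in TwistER and 5.12 ± 0.08 in GFP (SD). CXCL1, CXCL2 and CXCL3 are close relatives in sequence, and probe sets of such genes can pick up each other's transcripts. The other 5 CXC genes, among them CXCL12, the ligand of CXCR4, and the epithelial chemokines CXCL14, CXCL16 and CXCL17, were near background in both lines, and so were XCL1 and XCL2. CX3CL1, a membrane-bound chemokine of endothelium and epithelium, was above the limit at 5.28 ± 0.16 in TwistER and 5.37 ± 0.18 in GFP (SD).

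Among the IL1 family genes of the naming rule, IL18 fell and none of the other 7 passed. IL18 is made by epithelia as an inactive precursor that caspase-1 cleaves, and the mature cytokine induces interferon gamma in T and NK cells. It read 5.31, 4.98 and 4.71 in the TwistER arrays, against 7.90, 7.38 and 7.36 in the GFP arrays. The lines were far apart, and TwistER replicate 3 was below the background limit. The difference was -2.54 ± 0.20 (SE; 95% interval -2.99 to -2.09; limma adjusted p = 0.000133). Without single arrays it was -2.70 to -2.37, with a highest adjusted p of 0.00173.

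The other IL1 family genes of the rule, IL1A, IL1B, IL33, IL36A, IL36B, IL37 and the receptor antagonist IL1RN, were near background in both lines. IL1A, the alarmin stored in epithelial cells, was 4.27 ± 0.17 in TwistER and 4.49 ± 0.37 in GFP (SD), and IL1B was 3.47 ± 0.15 and 3.51 ± 0.07 in the same order. The genes beside IL18 on chromosome 11, SDHD (0.06) and TEX12 (-0.33), did not pass.

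IL7 supports the survival of lymphocytes and is made by stromal and epithelial cells. It read 5.10, 5.44 and 5.28 in the TwistER arrays, against 4.76, 4.35 and 4.29 in the GFP arrays. The groups did not overlap, and all 3 GFP values were below the background limit. The difference was 0.80 ± 0.16 (SE; 95% interval 0.45 to 1.16; limma adjusted p = 0.0146), or 0.71 to 0.95 without single arrays, with a highest adjusted p of 0.0764. The other 4 ligands of the common gamma chain were near background, with IL15 at 4.34 ± 0.08 in TwistER and 4.40 ± 0.20 in GFP (SD).

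The gp130 ligands IL6, IL11 and LIF had lower means in TwistER, and none passed with all arrays. OSM and CTF1, gp130 ligands outside the naming pattern, had higher means in TwistER (0.28 and 0.20). Neither passed (limma adjusted p = 0.244 and 0.429). IL11, a cytokine that TGF-beta induces in epithelium and fibroblasts, read 5.81, 5.58 and 5.71 in the TwistER arrays, against 6.25, 6.18 and 5.98 in the GFP arrays. Its groups did not overlap, and the difference of -0.44 ± 0.12 (SE) missed the threshold (limma adjusted p = 0.0614). It passed when only the brighter genes were tested, with a limma adjusted p of 0.0469 above the 25th and 0.0392 above the 50th percentile of brightness, where 6.1% and 8.74% of the tested genes fell. IL6, the main inducer of the acute phase response, read 4.83, 5.27 and 5.45 in the TwistER arrays, against 5.91, 5.40 and 5.63 in the GFP arrays (difference -0.46, limma adjusted p = 0.204). The IL6 groups overlapped through TwistER replicate 3.

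LIF, a differentiation factor that signals through LIFR and gp130, read 4.51, 4.65 and 4.47 in the TwistER arrays, against 4.31, 4.92 and 4.99 in the GFP arrays. GFP replicate 1 was the lowest of all 6, and its removal moved the LIF difference by more than 1.5 times, to -0.41 from -0.19 with all arrays.

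In the remaining families no transcript passed with all 6 arrays. Of the 6 measured genes of the IL10 family all were near background. IL20, a keratinocyte-acting member of that family, read 2.91, 3.15 and 3.17 in the TwistER arrays, against 2.71, 2.71 and 2.58 in the GFP arrays. Every TwistER array was higher, but all 6 values were below the background limit (difference 0.41, limma adjusted p = 0.0669). In the IL17 family IL17D, read at 6.25 ± 0.13 in TwistER and 6.04 ± 0.10 in GFP (SD), IL17B and IL17C were above the limit and IL17A, IL17F and IL25 below it. IL17C, an epithelial cytokine, differed by 0.07 (95% interval -0.32 to 0.46). Of the IL12 family subunits, IL23A was above the limit at 5.41 ± 0.25 in TwistER and 5.54 ± 0.29 in GFP (SD), while IL12A, IL12B and IL27 were below it. IL16, IL32 and IL34 were above the limit and differed by -0.02, 0.14 and -0.11. IL2, IL3, IL4, IL5, IL13, IL21 and IL31, cytokines of T cells, were below it in both lines.

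The 76 ligands had a median within-group SD of 0.17, the same as over all genes (0.17). With that spread, 62 of the 76 differed by less than 0.25 in either direction, beside 12663 of all 18417 genes. TwistER arrays did not overlap GFP arrays in 9 genes, lying above in 6 (7.89%, beside 13.9% of all genes) and below in 3 (3.95%, beside 14.5%). The 9 were the 5 that passed, IL11 and CCL8 below, and IL17D and IL20 above.

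**Figure D4:**
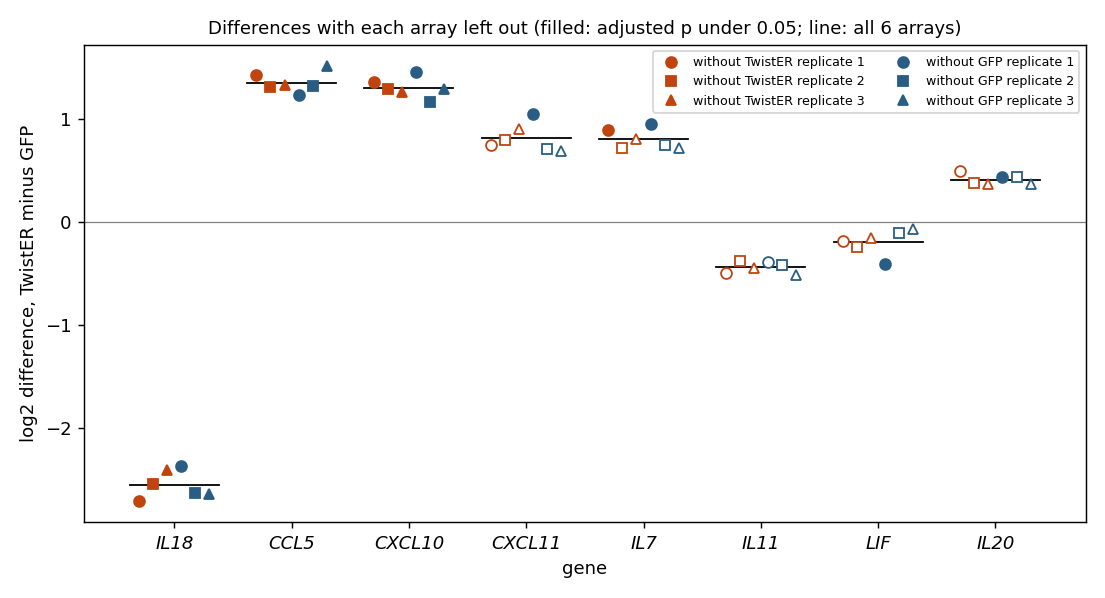
Log2 difference, TwistER minus GFP, of 8 ligand genes with each of the 6 arrays left out in turn (orange symbols for TwistER arrays, blue for GFP arrays) and with all 6 (black line). Filled symbols have an adjusted p under 0.05. IL18, CCL5 and CXCL10 are filled throughout, CXCL11 only without GFP replicate 1, IL7 without TwistER replicate 1 or GFP replicate 1, and LIF and IL20 only without GFP replicate 1.

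Receptors were described from lists of 21 chemokine receptor genes and 43 interleukin receptor genes that were measured. Of the chemokine receptors 1 rose and 0 fell, beside 4.72% and 4.11% of all genes, and 19 were near background in both lines. The 1 was ACKR3, a scavenging receptor for CXCL11 and CXCL12, which read 4.74, 4.87 and 4.79 in the TwistER arrays, against 4.23, 3.48 and 3.52 in the GFP arrays. The means of both lines were near background, and the difference of 1.06 ± 0.20 (SE; limma adjusted p = 0.0113) lost its call without TwistER replicate 2 or 3. CXCR3, the receptor of CXCL9, CXCL10 and CXCL11, was 5.07 ± 0.08 in TwistER and 5.17 ± 0.32 in GFP (SD) and did not pass. CCR1, a receptor that binds CCL5, was 2.89 ± 0.03 in TwistER and 3.58 ± 0.40 in GFP (SD), near background in both lines (limma adjusted p = 0.0590). CCR1 fell by 0.46 on the log2 scale once GFP replicate 1 was left out (limma adjusted p = 0.0152). In that setting 1 chemokine receptor rose and 1 fell, beside 6.97% and 8.09% of all genes.

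Of the 43 interleukin receptor genes 7 rose and 0 fell, beside 4.72% and 4.11% of all genes, with a median difference of 0.04. Without GFP replicate 1, 7 rose and 0 fell, beside 6.97% and 8.09% of all genes. IL7R, the receptor chain that binds IL7 and pairs with CRLF2 to bind TSLP, read 11.26, 11.27 and 11.21 in the TwistER arrays, against 9.24, 9.25 and 9.35 in the GFP arrays. The arrays of each line lay close together, and the IL7R difference was 1.96 ± 0.10 (SE; 3.90-fold; limma adjusted p = 1.33e-05). IL2RG, the common gamma chain with which IL7R pairs for IL7, was near background at 3.68 ± 0.15 in TwistER and 3.81 ± 0.11 in GFP (SD). CRLF2 read 5.12, 5.10 and 5.32 in the TwistER arrays, against 3.56, 3.40 and 3.97 in the GFP arrays, a 2.90-fold rise (limma adjusted p = 0.000611). The GFP values of CRLF2 were below the background limit, and TSLP, its ligand, was at 2.22 ± 0.29 in TwistER and 2.28 ± 0.10 in GFP (SD), near background in both.

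IL1R1, the signalling receptor for IL1A and IL1B, read 6.63, 6.64 and 6.49 in the TwistER arrays, against 5.28, 4.97 and 5.01 in the GFP arrays. It rose 2.83-fold with no overlap (limma adjusted p = 0.000183), while both of its ligands were near background. IL31RA, which pairs with OSMR to bind IL31, rose 2.08-fold, to 7.16 ± 0.10 in TwistER against 6.10 ± 0.09 in GFP (SD; limma adjusted p = 0.000630). The remaining 3, named after their values were seen, were IL11RA, the binding chain for IL11 (0.71 ± 0.11 SE), IL6ST, which encodes gp130 (0.62 ± 0.13), and IL17RD (0.40 ± 0.10). IL18R1 and IL18RAP, the chains of the IL18 receptor, were near background in both lines.

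**Figure D5:**
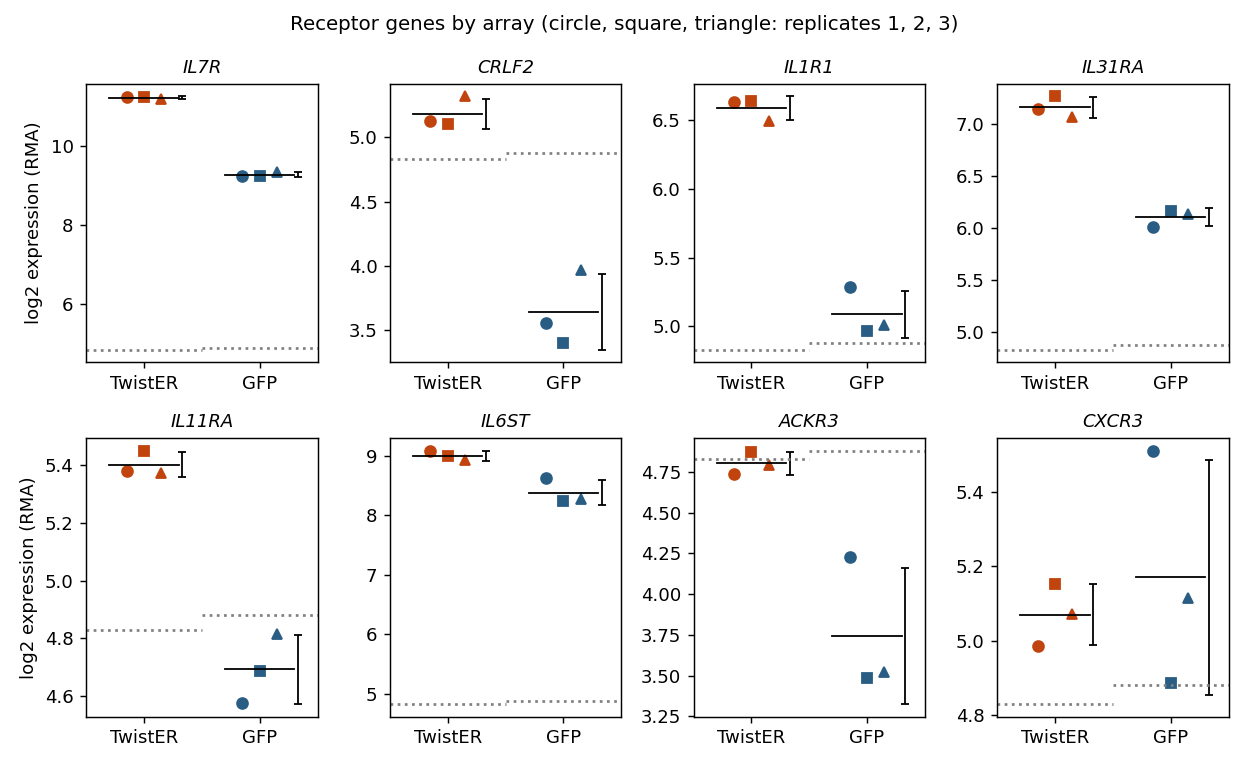
Log2 expression of 8 receptor genes in each array, TwistER left (orange) and GFP right (blue), drawn as in the plot of ligand genes by array. Vertical scales differ between genes. IL7R, CRLF2, IL1R1, IL31RA, IL11RA, IL6ST and ACKR3 are higher in every TwistER array, and CXCR3 overlaps. In ACKR3 the TwistER arrays lie close to the dotted background limit and the GFP arrays lie below it.

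Among genes that process or control these ligands few passed. Of 12 measured genes of the inflammasome and of IL1 family processing, 0 rose and 1 fell, beside 4.72% and 4.11% of all genes. AIM2, a sensor of cytosolic DNA that activates caspase-1, read 7.95, 7.80 and 7.66 in the TwistER arrays, against 8.68, 8.56 and 8.54 in the GFP arrays, a 1.73-fold fall without overlap (limma adjusted p = 0.00367). CASP1, which encodes the protease that cleaves the IL18 precursor, was near background, at 2.31 ± 0.14 in TwistER and 2.36 ± 0.23 in GFP (SD). Of 18 NF-kB factors and feedback targets 0 rose and 1 fell, beside the same shares of all genes. The 1 was the kinase gene CHUK (-0.76 ± 0.17 SE, limma adjusted p = 0.0300). CHUK passed in no set of 5 arrays except without GFP replicate 1. Without GFP replicate 1, NAIP of the first list rose (0.50, limma adjusted p = 0.0363) and IKBKB of the second fell (-0.43, limma adjusted p = 0.0369). In that setting 6.97% of all genes rose and 8.09% fell. NFKBIA, a feedback target of NF-kB, was 7.78 ± 0.10 in TwistER and 7.89 ± 0.18 in GFP (SD).

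Of 20 genes of interferon and STAT signalling, 5 rose and 0 fell without GFP replicate 1, beside 6.97% and 8.09% of all genes. With all arrays 4 of the 20 rose and 0 fell, beside 4.72% and 4.11% of all genes, with a median difference of 0.16. They were IFNAR2, a chain of the type I interferon receptor (0.95 ± 0.18 SE), IFNGR2, a chain of the interferon gamma receptor (0.94 ± 0.10), the kinase gene JAK1 (0.72 ± 0.15) and STAT5B (0.67 ± 0.11). IFNGR2 and STAT5B passed with any single array left out, whereas IFNAR2 and JAK1 lost their calls without any one of the TwistER arrays (highest limma adjusted p of 0.0606 and 0.0884). IFNB1, which encodes interferon beta, was near background at 3.30 ± 0.06 in TwistER and 3.26 ± 0.43 in GFP (SD), and IRF1 was 4.84 ± 0.23 in TwistER and 4.72 ± 0.27 in GFP (SD).

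Chemokines and interleukins can come from leukocytes, fibroblasts or endothelial cells, so markers of these were read on the same arrays. Over all genes 4.72% rose and 4.11% fell with all arrays, and 6.97% and 8.09% without GFP replicate 1. Of 11 leukocyte markers 0 rose and 0 fell, and 8, among them PTPRC, CD3E, CD14 and ITGAM, were near background in both lines. CD68, TYROBP and NKG7 were above the limit in both lines. In the order TwistER and GFP, their means were 6.44 and 6.19 for CD68, 5.96 and 5.90 for TYROBP, and 5.48 and 5.32 for NKG7. Every TwistER array was above every GFP array in CD68, which did not pass. Without GFP replicate 1, PTPRC passed as a rise (0.48, limma adjusted p = 0.0407). The summed linear signal of the leukocyte markers was 267 to 317 in the TwistER arrays and 263 to 278 in the GFP arrays. Of 9 fibroblast markers 3 rose (COL3A1, PDGFRA and COL1A1) and 1 fell (LUM), with a summed signal of 393 to 418 in TwistER and 356 to 441 in GFP. Of 6 endothelial markers KDR and PECAM1 rose and 0 fell, with CDH5, VWF, TEK and PECAM1 itself near background in both lines. Their summed signal was 211 to 217 in TwistER and 123 to 125 in GFP. KDR had by far the largest difference of the 6, with mean log2 values of 6.715 in TwistER and 4.922 in GFP. The change of that sum is thus mostly KDR. All arrays came from cultures of the H358 line. Which cells in them gave the fibroblast and endothelial marker signals was not tested. Of 7 markers of carcinoma epithelium 0 rose and 5 fell (CDH1, EPCAM, KRT19, MUC1 and KRT8). KRT8 was 8.79 ± 0.18 in TwistER and 9.49 ± 0.17 in GFP (SD), and KRT7 was 8.65 ± 0.10 in TwistER and 8.82 ± 0.41 in GFP (SD). Without GFP replicate 1 all 7 of these markers fell, KRT7 by 0.41 and KRT18 by 1.40 on the log2 scale (limma adjusted p = 0.0352 and 0.00191).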

How the data were processed

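RNA of 6 cultures was measured on Affymetrix arrays. Values in the deposited table are on the log2 scale, 1 per probe set, and RMA is the method that the submitters' processing notes name. Since RMA gives every array the same intensity distribution, a change in total RNA per cell cannot be seen. No version or setting of it is stated. All 6 columns were mapped to a sample, and no 2 arrays were identical. With 3 arrays per line, precision is limited by their number.

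Of 33297 probe sets, 19460 had 1 symbol in the platform annotation, and for each gene the one with the highest mean over all 6 arrays was kept (18417 genes). Only XCL1 among the ligands had a choice of probe sets. No filter on brightness was applied. The lines were compared by limma (3.58.1, under R 4.3.3) through lmFit and eBayes without covariates, with 4.44 prior degrees of freedom. The fit was also tested on simulated data with the spread of these arrays. It called 8 of 50 genes shifted by 0.5, 43 of 50 shifted by 1 and 48 of 50 shifted by 2. Of 50 shifted by -1 it called 34. It also called 4 unshifted genes. A shift of 0.5 was thus mostly missed in the simulation. Far fewer genes were shifted there than passed in the real arrays, which makes the adjustment over all genes stricter in the simulation. These shares therefore do not give how often such a shift would be missed in the real arrays. Promoter windows came from RefSeq (GRCh38.p14), up to each start.

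The ligand genes and all lists were chosen with earlier results of these data known. Named are the ligands that passed, the 10 with the highest mean, ligands with an absolute difference of at least 0.5 and separate groups that missed the threshold (0 genes), up to 4 genes that passed in each pathway list by size of difference, and partners of these. LIF, IL20, CCL8, CCL4, CCL20 and the other genes given as examples were singled out after their values were seen. Alternatives were other normalizations, filters on dim genes, averaging or keeping all probe sets of a gene, a trended robust variance, a replicate block, thresholds of 0.01 and 0.10, each array left out, and other background limits. Plots were made with Python 3.11.15 and matplotlib 3.10.9.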

Additional observations from a re-analysis of the deposited data

How the results depend on the processing

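The fall of IL18 and the rises of CCL5 and CXCL10 kept their direction and their call under every alternative run, and CXCL11 and IL7 kept their direction under each alternative that held them. With all 6 arrays 4 ligands rose and 1 fell. With single arrays left out 2 to 5 ligands rose and 1 to 2 fell. The same settings gave 473 to 1283 rises and 358 to 1490 falls over all genes, and 7 to 16 rises and 1 to 4 falls over the 7 pathway lists, beside 13 and 2 with all arrays. The count of rising ligands was 2 without TwistER replicate 2 or 3 and without GFP replicate 2 or 3. At an adjusted p under 0.01, 2 ligands rose, 472 genes rose and 335 fell, and 7 pathway genes rose and 1 fell. At 0.10, 2 ligands and 1192 genes fell. Testing only genes above the 25th or the 50th percentile of brightness gave 2 falling ligands, and above the 50th the median difference of the ligands was 0.015, over fewer genes. Ligands near background in both lines were 42 and 73 with the 90th and 99th percentile of the olfactory receptors and 39 with the lower quartile of all genes, beside 54.

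With single arrays left out, the differences of 9 to 14 of the 76 ligands changed sign, none of them called with all arrays. They included IL5 without GFP replicate 1 (0.006, against -0.406 with all arrays), CCL4 without GFP replicate 2 (-0.358, against 0.134) and CXCL9 without TwistER replicate 3 (0.007, against -0.228). Among the brightest ligands, sign changes occurred in IL17C without TwistER replicate 2 (-0.009) or GFP replicate 2 (-0.075) in a range of -0.075 to 0.199, IL23A without TwistER replicate 3 (0.012) or GFP replicate 1 (0.037) in a range of -0.218 to 0.037, and CCL17 without GFP replicate 3 (0.021) in a range of -0.087 to 0.021. The cause was not tested. Deviations of same-numbered arrays from their group means correlated at 0.139, 0.015 and 0.157, so the numbers were not taken as pairs. With the replicate block 4 ligands rose and 1 fell, and 840 genes (4.56%) rose and 752 (4.08%) fell. No scanner file was used, so background correction and scan batch were not varied. Signal near background and 3 arrays per line limit what could be called for dim ligands.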

Other observations

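Secreted factors related to the ligands but outside their naming pattern did not pass. Of 17 measured (among them CSF1, CSF3, TSLP, EBI3, TNF, PPBP and IL18BP) 0 rose and 0 fell in limma with all arrays. Over all genes 4.72% rose and 4.11% fell. CSF1, the growth factor of macrophages, read 5.72, 5.80 and 5.74 in the TwistER arrays, against 5.60, 5.10 and 5.34 in the GFP arrays, with no overlap (0.41, adjusted p = 0.121), and it rose without GFP replicate 1 (0.53, adjusted p = 0.0148). IL18BP, a secreted trap of IL18, was 5.61 ± 0.14 in TwistER and 5.43 ± 0.16 in GFP (SD, 3 arrays each). Of 9 factors that bind and degrade or protect cytokine mRNA 1 rose and 0 fell, beside 4.72% and 4.11% of all genes. The 1 was ZFP36L1 (0.52 ± 0.12 SE, limma adjusted p = 0.0345). Its call held with all arrays and without GFP replicate 1 but with no other array left out.

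Probe sets with several symbols were compared with no test. Those of CCL4 and its copies CCL4L1 and CCL4L2 averaged 3.63 to 3.92 in TwistER and 3.48 to 3.77 in GFP. Those of CCL3 and its copies CCL3L1 and CCL3L3 averaged 5.47 in TwistER and 5.51 in GFP, that of CCL14 and CCL15 averaged 3.80 in TwistER and 3.72 in GFP, and that shared by CCL27 and a second locus averaged 5.04 in TwistER and 4.92 in GFP. The dimmer of the XCL1 probe sets read 2.55, 2.50 and 2.68 in the TwistER arrays, against 3.29, 2.74 and 3.08 in the GFP arrays, so that its groups did not overlap, whereas the brighter one overlapped.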
